A study of Mus musculus with 12 samples.

Results

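Transcripts of 9 scavenger and efferocytosis receptor genes, Marco, Msr1, Scarb1, Cd163, Mrc1, Stab1, Cd5l, Mertk and Axl, were followed in mouse peritoneal macrophages across diet and lipopolysaccharide (LPS). The 9 were listed by symbol, out of 24562 genes in the count table, and each was read from its RefSeq transcript with the highest mean count. All 9 were among the 12641 genes that passed the filter on low counts. RNA had been sequenced from macrophages of female mice fed a high fat diet (HFD) or chow, after 24 h or 0 h with LPS, a component of the bacterial outer membrane that Toll-like receptor 4 recognises. There were 12 libraries, 3 in each of 4 groups, HFD 24 h, HFD 0 h, chow 24 h and chow 0 h. The sources used here do not give strain, genotype, age, LPS dose or how the cells were collected. No group kept for 24 h without LPS was analysed here, so LPS and the time that passed cannot be told apart, and a difference of 24 h against 0 h is called an LPS change.

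Macrophages clear modified lipoproteins, microbes, haemoglobin and dying cells through surface receptors of several families. Scavenger receptors bind polyanionic ligands such as oxidised low density lipoprotein and deliver them to lysosomes. In efferocytosis, the uptake of apoptotic cells, the receptor tyrosine kinases of the TAM family (Tyro3, Axl and Mertk) recognise phosphatidylserine on the dying cell through the bridging proteins Gas6 and protein S. In other work, Mertk, Mrc1, Cd163 and Stab1 mark macrophages in resting or repair states, whereas Marco, Msr1 and Axl are known as genes that inflammatory stimuli can induce.

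The shallowest library, HFD 0 h replicate 3, held 2360244 counts, the next shallowest 9135057 and the deepest, HFD 24 h replicate 3, 20688308. HFD 0 h replicate 3 also stood alone on the second principal component, which held 15.4% of the variance. The labels of 4 libraries, all of chow 24 h and HFD 24 h replicate 1, name lane 8 (the lane tag), and the others name no lane. General macrophage markers (6 of 6 matched, led by Lyz2) summed to between 9749 and 12187 CPM, the count relative to the scaled library total, in HFD 24 h and 13910 and 15536 CPM in HFD 0 h. In chow the sums were 9559 to 10889 CPM at 24 h and 14157 to 15453 CPM at 0 h, so they were lower at 24 h without overlap. The lower sum lay in Lyz2, whose means were 4858 and 9914 CPM in HFD 24 h and 0 h and 4477 and 9831 CPM in chow. Csf1r (943 and 866 CPM in HFD, 962 and 993 CPM in chow), Cd68 and Itgam differed little. Adgre1 (764 and 257 CPM in HFD, 698 and 391 CPM in chow) and Fcgr1 had higher means at 24 h. Monocyte and small peritoneal macrophage markers (7 of 7 matched) were higher at 24 h without overlap, at 104 to 125 CPM in HFD 24 h and 15.7 to 34.3 CPM in HFD 0 h, and 109 to 248 CPM in chow 24 h and 31.4 to 50.4 CPM in chow 0 h. The part of these shifts in the receptor changes with LPS was not tested. The 8 markers of large resident peritoneal macrophages, such as Gata6 and Timd4, summed to between 29.2 and 77.8 CPM. Mesothelial and stromal markers (10 of 10 matched, led by Col1a1) summed to between 1021 and 1150 CPM in HFD 24 h, 728 and 1434 CPM in HFD 0 h, 1072 and 3148 CPM in chow 24 h, and 809 and 2557 CPM in chow 0 h. B cell and T or NK cell markers summed to at most 20.1 and 8.73 CPM. Neutrophil markers summed to between 78.2 and 127 CPM. Mast cell and eosinophil markers were lower at 24 h without overlap, at 25.2 to 26.9 against 39.6 to 47.3 CPM in HFD. In chow they were at 24.0 to 33.5 against 43.0 to 53.1 CPM. Dendritic cell markers, led by Ccr7, were lower in HFD without overlap, at 16.1 to 18.9 against 27.5 to 36.4 CPM at 24 h. At 0 h they ran from 5.40 to 13.7 CPM in HFD, against 16.8 to 23.7 CPM in chow. The part of these sums in the receptor levels was not tested. The 6 endothelial markers summed to between 13.4 and 28.2 CPM, with Tek and Emcn at 0 in all 12 libraries.

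The balance of the receptors differed between the LPS times in both diets. On a scale of CPM per kilobase of transcript, which allows levels to be compared between genes, Msr1 stood highest in both 24 h groups, at 146 ± 13.6 in HFD 24 h and 156 ± 20.0 in chow 24 h (SD, n = 3 each), apart from every other receptor. It made up 47.0% of the summed level of the 9 transcripts in HFD 24 h, against 16.9% in HFD 0 h, and 47.7% in chow 24 h, against 20.0% in chow 0 h. Axl was second in both 24 h groups, at 49.0 ± 8.66 and 47.9 ± 5.50 CPM per kilobase. At 0 h no single receptor led. In HFD 0 h the ranges of Mrc1 (52.4 ± 9.28), Cd5l (51.3 ± 22.7), Msr1 (44.4 ± 7.01) and Mertk (41.7 ± 4.26 CPM per kilobase) each overlapped the next, and in chow 0 h Msr1 (60.3 ± 3.69) overlapped Mrc1 (54.8 ± 4.77 CPM per kilobase). Marco and Cd163 were the lowest in both 0 h groups. The summed level of all 9 lay closer together, at 311 ± 22.6 CPM per kilobase in HFD 24 h against 263 ± 39.0 in HFD 0 h, and at 326 ± 19.8 in chow 24 h against 302 ± 22.9 in chow 0 h.

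**Figure D1:**
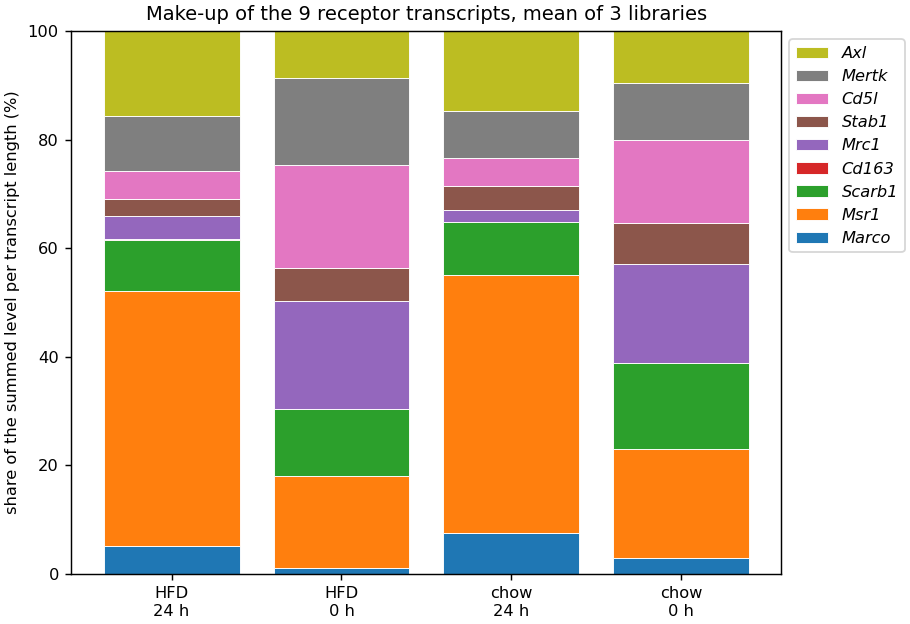
Stacked shares of each receptor in the summed level per transcript length (%, vertical axis), as the mean of 3 libraries in HFD 24 h, HFD 0 h, chow 24 h and chow 0 h (horizontal axis). Msr1 holds 47.0% in HFD 24 h and 47.7% in chow 24 h, against 16.9% in HFD 0 h and 20.0% in chow 0 h, while the share of Mrc1 is 4.26% and 2.25% at 24 h against 20.0% and 18.2% at 0 h.

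The sequences just upstream of 3 receptor genes that changed with LPS in both diets, Marco, which rose, and Mrc1 and Cd5l, which fell, are given to show what lies at these starts. RefSeq windows of 250 bases before the start (GRCm38.p6) were matched for 7 of the 9 genes, all but Msr1 and Scarb1. Those of Axl, Cd163 and Stab1 are not printed because they reach into the annotated span of the gene. Both strands were searched for GGG and TTTCC with 2 bases between them (NF-kB), GAAA and GAAA with 2 bases between them (interferon-stimulated response element), TGA and TCA with 1 base between them (AP-1), TGACGTCA (CRE), GAGGAAG (ETS factors such as PU.1), TTCNNNGAA (GAS), the E-box CACGTG, the nuclear receptor half-site AGGTCA and the MAF half-site TGCTGA, and capitals mark the matches, none of which overlap in these windows. The Marco window lies on the minus strand at chr1:120505025-120505274, the Mrc1 window on the plus strand at chr2:14229164-14229413 and the Cd5l window on the plus strand at chr3:87357631-87357880.
Marco: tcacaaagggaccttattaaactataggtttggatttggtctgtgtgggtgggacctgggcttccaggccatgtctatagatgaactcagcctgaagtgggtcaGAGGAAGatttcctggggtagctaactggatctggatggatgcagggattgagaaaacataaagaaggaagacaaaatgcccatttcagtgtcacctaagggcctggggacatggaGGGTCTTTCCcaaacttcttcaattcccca
Mrc1: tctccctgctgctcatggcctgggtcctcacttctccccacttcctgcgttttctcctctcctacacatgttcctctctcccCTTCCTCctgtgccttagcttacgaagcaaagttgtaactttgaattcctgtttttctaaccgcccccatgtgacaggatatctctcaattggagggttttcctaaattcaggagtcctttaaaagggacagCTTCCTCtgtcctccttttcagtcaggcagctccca
Cd5l: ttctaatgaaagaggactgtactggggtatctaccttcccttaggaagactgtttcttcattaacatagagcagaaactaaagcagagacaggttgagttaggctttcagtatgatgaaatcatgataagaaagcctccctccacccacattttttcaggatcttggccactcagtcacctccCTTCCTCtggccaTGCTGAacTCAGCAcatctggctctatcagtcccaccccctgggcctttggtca
The NF-kB letters stood in the Marco window, 30 to 21 bases before the start, in 1 of the 7 windows, and in 1.41% of 32851 windows of the same length genome-wide. The ETS letters stood in the Axl, Cd5l, Marco and Mrc1 windows, 4 of 7, against 10.6% of all windows, and in Axl the match lies within the annotated span of the gene. The MAF half-site stood in Cd5l, on both strands, and in Stab1, 2 of 7, against 16.1% of all windows. Receptors that rose and receptors that fell thus both held the ETS letters. None of the 7 windows held the other letters searched, which says only that these letters are not in these windows.

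With LPS, 3 of the 9 receptors rose in both diets, Marco, Msr1 and Axl, and 3 fell in both, Mrc1, Cd5l and Stab1. Scarb1 also fell in chow, and Cd163 and Mertk passed the test in neither diet. In HFD, 6 of 9 passed the quasi-likelihood test of edgeR (Benjamini-Hochberg adjusted p under 0.05), 3 up and 3 down, against 24.6% of all 12641 genes (12.7% up and 12% down). In chow, 7 of 9 passed, 3 up and 4 down, against 26.6% of all genes (13.7% up and 12.9% down). The libraries of 24 h and 0 h did not overlap for 7 of 9 in each diet, against 35.4% of all genes in HFD and 45.5% in chow. The median log2 fold change of the 9 was -0.14 in HFD and -0.61 in chow, beside -0.0023 and 0.00012 over all genes tested. In RNA from whole samples, fewer cells of a type and less RNA per cell cannot be told apart. In chow every 24 h library and no 0 h library names the lane, which cannot be told apart from LPS there. When the lane tag entered as a covariate, 4 of 9 passed in chow (Msr1, Axl, Mrc1 and Stab1), against 1509 of all genes. Only HFD 24 h holds libraries with and without the tag, so the lane term rests on its replicate 1 against replicates 2 and 3. The chow calls that ended with it are thus not shown to be lane effects.

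**Figure D2:**
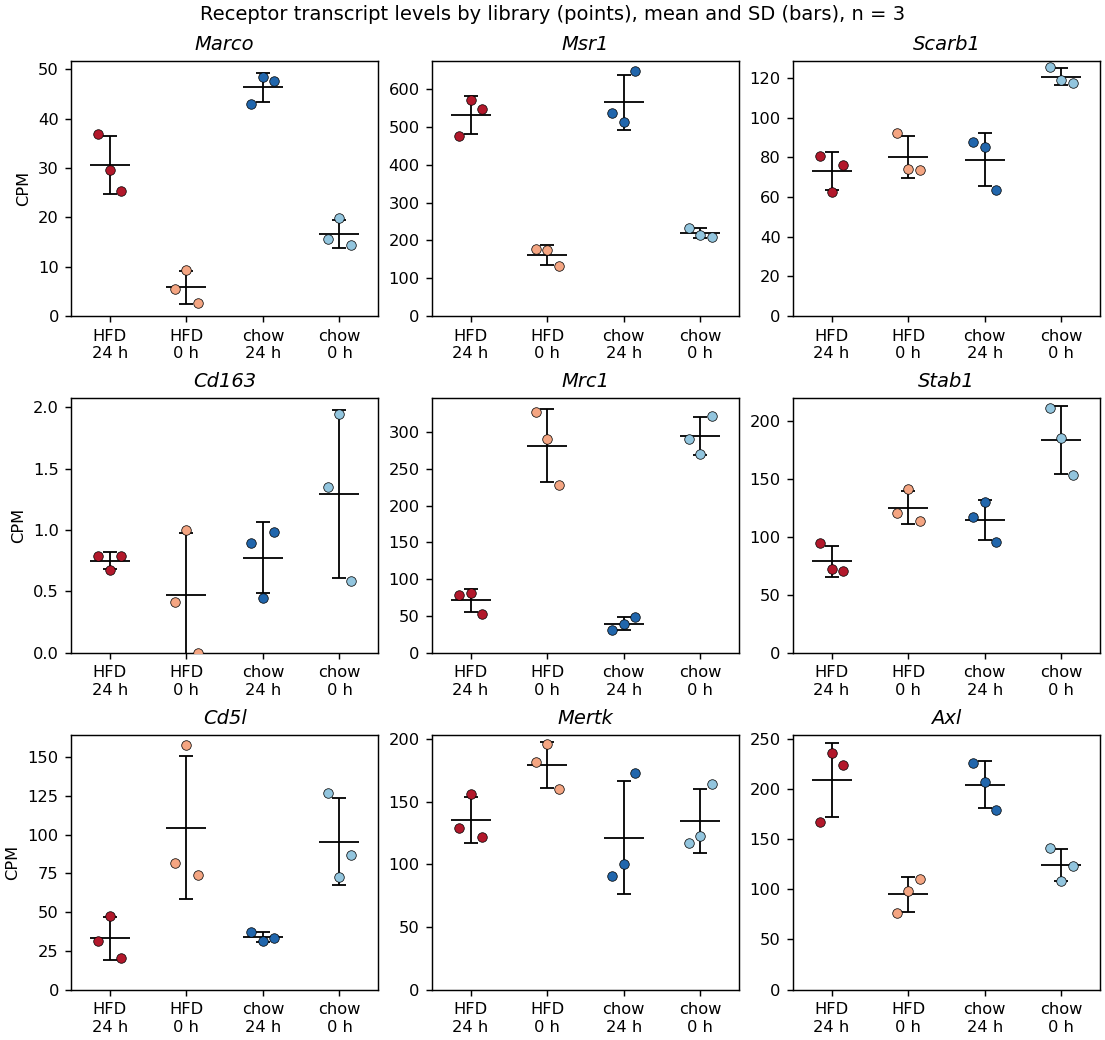
Level of each of the 9 receptor transcripts (CPM, vertical axes from 0) in every library (points), by group in the order HFD 24 h, HFD 0 h, chow 24 h and chow 0 h, with the mean and SD of 3 libraries as bars. Marco, Msr1 and Axl lie higher at 24 h than at 0 h in both diets without overlap, Mrc1, Cd5l and Stab1 lie lower without overlap, and Cd163 lies at 1.95 CPM or less in every library.

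Marco, a class A scavenger receptor that binds bacteria, particles and modified lipoproteins (chromosome 1, 120474538 to 120505024, GRCm38.p6), had the largest fold increase of the 9 in both diets. It stood at 36.9, 29.5 and 25.3 CPM in the HFD 24 h libraries and at 5.41, 9.35 and 2.70 CPM in the HFD 0 h libraries. In chow it stood at 42.9, 48.5 and 47.6 CPM at 24 h and at 15.7, 19.9 and 14.4 CPM at 0 h. Every 24 h library lay above every 0 h library of either diet, and the lowest value, 2.70 CPM, came from 6 counts in the shallowest library. Marco rose 4.69-fold with LPS in HFD (log2 fold change 2.23 ± 0.26, SE, edgeR adjusted p = 5.33e-06) and 2.78-fold in chow (1.48 ± 0.23, adjusted p = 0.000103). In chow the call ended with the lane tag as a covariate, at 1.05 ± 0.40 (edgeR adjusted p = 0.111).

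Msr1 encodes scavenger receptor A, which takes up acetylated and oxidised low density lipoprotein (chromosome 8, 39543232 to 39642750). Its level was 477, 572 and 548 CPM in HFD 24 h and 177, 176 and 132 CPM in HFD 0 h. In chow 24 h it was 536, 513 and 649 CPM, against 234, 215 and 209 CPM in chow 0 h. The groups of each diet lay far apart, with no 24 h library near any 0 h library. Msr1 rose 3.28-fold in HFD (log2 fold change 1.71 ± 0.15, edgeR adjusted p = 1.10e-07) and 2.58-fold in chow (1.37 ± 0.14, adjusted p = 1.21e-06).

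Msr1 has a longer RefSeq transcript of 3636 bases, used here, and a shorter one, and a read that both share stands in the count of each. The ratio of the shorter to the longer count was 0.637 ± 0.036 in HFD 24 h against 0.738 ± 0.062 in HFD 0 h, and 0.639 ± 0.013 in chow 24 h against 0.697 ± 0.017 in chow 0 h (SD, n = 3 each). The ratio was lower at 24 h in every library of each diet, with an exact two-sided permutation p of 0.1 in both diets, the smallest that 3 against 3 allows (0.4 after Benjamini-Hochberg adjustment over 20 such ratios of Msr1, Scarb1 and Axl). Between the diets the exact permutation p of the ratio was 1 at 24 h and 0.4 at 0 h.

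Scarb1, the class B receptor SR-BI that binds high density lipoprotein and exchanges cholesterol with it (chromosome 5, 125277087 to 125341094), was highest in chow 0 h. It stood at 80.8, 62.5 and 76.3 CPM in HFD 24 h and at 92.5, 74.4 and 73.7 CPM in HFD 0 h, which overlap. In chow it stood at 88.0, 85.1 and 63.7 CPM at 24 h and at 125, 119 and 118 CPM at 0 h, without overlap. Scarb1 fell in chow, 1.53-fold (log2 fold change -0.61 ± 0.15, edgeR adjusted p = 0.00518), while the value in HFD was -0.14 ± 0.15 (adjusted p = 0.568), with a 95% interval of the fold of 0.738 to 1.12. The chow call ended with the lane tag as a covariate, at -0.83 ± 0.26 (edgeR adjusted p = 0.0507), a larger fall with a larger SE.

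Cd163, the receptor for haemoglobin bound to haptoglobin (chromosome 6, 124304636 to 124330529), was near the limit of detection. Its 3 libraries held 10, 12 and 17 counts in HFD 24 h and 4, 9 and 0 counts in HFD 0 h, and 12, 5 and 15 counts in chow 24 h and 17, 24 and 7 counts in chow 0 h. The 0 counts came from HFD 0 h replicate 3, the shallowest library, where 3 counts, the limit that a count of 0 allows, equal 1.35 CPM, above the mean of every group. The limit covers counting error only. The log2 fold change with LPS was 0.32 ± 0.69 in HFD and -0.71 ± 0.59 in chow (edgeR adjusted p = 0.788 and 0.428), and the 95% intervals of the fold, 0.49 to 3.20 and 0.276 to 1.36, span both directions. A difference in Cd163 was not detectable at this depth.

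Mrc1, the macrophage mannose receptor CD206, a C-type lectin that binds sugars on microbes and glycoproteins (chromosome 2, 14229414 to 14332023), had the largest fold decrease of the 9 in both diets. It stood at 79.0, 81.5 and 53.4 CPM in HFD 24 h and at 327, 290 and 228 CPM in HFD 0 h. The chow levels were 30.8, 39.2 and 48.6 CPM at 24 h and at 291, 271 and 321 CPM at 0 h. The levels of the 2 diets overlapped at 0 h but not at 24 h, where every HFD library lay above every chow library. Mrc1 fell 3.97-fold with LPS in HFD (log2 fold change -1.99 ± 0.19, edgeR adjusted p = 5.55e-07) and 7.43-fold in chow (-2.89 ± 0.20, adjusted p = 8.97e-09).

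Stab1, or stabilin-1, takes up modified lipoproteins and extracellular matrix proteins and binds phosphatidylserine (chromosome 14, 31139017 to 31168651). It stood at 94.2, 72.0 and 70.2 CPM in HFD 24 h and at 120, 141 and 114 CPM in HFD 0 h. In chow it stood at 117, 130 and 95.8 CPM at 24 h and at 211, 185 and 153 CPM at 0 h. The 24 h libraries lay below the 0 h libraries in each diet, and the HFD libraries lay below the chow libraries at each time. Stab1 fell by nearly the same fold in both diets, 1.59-fold in HFD (log2 fold change -0.67 ± 0.16, edgeR adjusted p = 0.00538) and 1.60-fold in chow (-0.68 ± 0.16, adjusted p = 0.00415).

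Cd5l, also called AIM, is a secreted scavenger receptor cysteine-rich protein of macrophages, so it is a soluble scavenger protein and no surface receptor (chromosome 3, 87357881 to 87371074). It stood at 31.4, 47.5 and 20.2 CPM in HFD 24 h and at 81.9, 158 and 73.7 CPM in HFD 0 h. The chow levels were 37.4, 31.6 and 33.0 CPM at 24 h and at 127, 72.6 and 86.9 CPM at 0 h. Its spread within HFD was wide, with a coefficient of variation of 41.5% at 24 h and 44.3% at 0 h, but the LPS groups did not overlap in either diet. Cd5l fell 3.20-fold in HFD (log2 fold change -1.68 ± 0.33, edgeR adjusted p = 0.00160) and 2.81-fold in chow (-1.49 ± 0.33, adjusted p = 0.00340). The chow call ended with the lane tag as a covariate, at -1.38 ± 0.57 (edgeR adjusted p = 0.157).

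Of the TAM receptors listed, Axl passed the LPS test in both diets and Mertk in neither. Mertk, the main receptor kinase for apoptotic cells on resting macrophages (chromosome 2, 128698915 to 128803162), stood at 129, 156 and 122 CPM in HFD 24 h and at 182, 196 and 160 CPM in HFD 0 h. The chow levels were 90.4, 100 and 173 CPM at 24 h and at 117, 123 and 164 CPM at 0 h. The HFD groups did not overlap and the chow groups did, with chow 24 h replicate 3 above every chow 0 h library. Its log2 fold change did not pass in HFD, at -0.41 ± 0.21 (edgeR adjusted p = 0.180), nor in chow, at -0.15 ± 0.21 (adjusted p = 0.656). Without chow 24 h replicate 3 the chow value was -0.49 and passed (edgeR adjusted p = 0.0398). That library also held the highest sum of monocyte and small peritoneal macrophage markers, 248 CPM against 109 and 119 CPM in the other chow 24 h libraries. Ly6c2 led that sum, at 126 ± 63.3 CPM in chow 24 h (SD, n = 3), while Ccr2 averaged 1.23 CPM, so it mostly gives the level of 1 gene. The same library held the lowest sum of stromal markers of its group, and the part of these sums in the Mertk level was not tested.

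Axl, the TAM kinase that inflammatory stimuli are known to induce (chromosome 7, 25756500 to 25788924), stood at 167, 236 and 223 CPM in HFD 24 h and at 76.3, 98.5 and 110 CPM in HFD 0 h. Levels in chow were 226, 207 and 180 CPM at 24 h and at 141, 108 and 123 CPM at 0 h, and the LPS groups of neither diet overlapped. Axl rose 2.22-fold in HFD (log2 fold change 1.15 ± 0.17, edgeR adjusted p = 6.14e-05) and 1.65-fold in chow (0.72 ± 0.17, adjusted p = 0.00326). Fibroblasts also express Axl, and the stromal marker sums ran in the same order over the libraries as Axl in chow 24 h (3148, 2208 and 1072 CPM) and HFD 0 h (728, 1002 and 1434 CPM), and not in HFD 24 h (1122, 1150 and 1021 CPM) or chow 0 h (2557, 1401 and 809 CPM). The stromal sums of the 24 h and 0 h libraries overlapped in each diet, and the part of stromal RNA in the Axl level was not tested.

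The level of Axl relative to Mertk, per transcript length, was 1.30, 1.52 and 1.85 in HFD 24 h and 0.423, 0.506 and 0.694 in HFD 0 h, so Axl exceeded Mertk in every HFD 24 h library and in no HFD 0 h library. In chow 24 h the ratio was 2.52, 2.09 and 1.05, against 1.21, 0.890 and 0.754 in chow 0 h, where replicate 3 of 24 h lay below replicate 1 of 0 h. An exact two-sided permutation test gave p = 0.1 for LPS in HFD, the smallest that 3 against 3 allows, and p = 0.2 in chow. Between the diets the exact permutation p was 0.6 at 24 h and 0.1 at 0 h, where the HFD ratios lay below the chow ratios (0.2, 0.267, 0.6 and 0.2 for the 4 tests in this order after Benjamini-Hochberg adjustment).

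**Figure D3:**
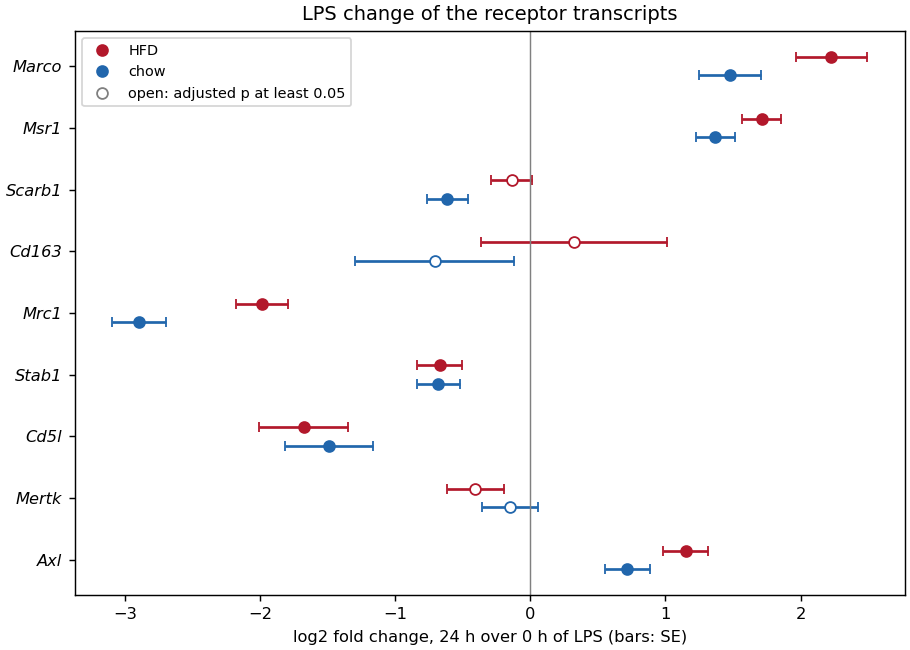
The log2 fold change of each receptor transcript, 24 h over 0 h of LPS (horizontal axis), in HFD (red, upper point of each pair) and chow (blue, lower point), with its SE as bars and open symbols where the edgeR adjusted p was 0.05 or more. The 2 diets agree in direction for the 6 receptors called in both, with the widest gap among them for Mrc1, at -1.99 in HFD and -2.89 in chow.

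Whether the LPS change differed between the diets was tested by the interaction, the log2 fold change with LPS in HFD minus that in chow. It was called for 0 of 9 receptors by edgeR and 0 by limma-voom, and for 0 of the 4 to which DESeq2 gave an adjusted p (Msr1, Mrc1, Mertk and Axl), and edgeR called 0% of all genes. At an unadjusted p under 0.05 it held for 3 of 9, against 2.35% of all genes, and all 3 values were positive. The values were 0.91 ± 0.27 for Mrc1, 0.47 ± 0.21 for Scarb1 and 0.75 ± 0.35 for Marco, each with an edgeR adjusted p of 0.9998. For Mrc1 and Scarb1 the estimated decrease was smaller in HFD, and for Marco the increase was larger. Stab1 lay nearest to 0, at 0.0088 ± 0.23, with a 95% interval of the ratio of folds of 0.736 to 1.37.

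At 0 h of LPS, 7 of the 9 receptors, all but Cd5l and Mertk, had lower means in HFD than in chow, but edgeR called 0 of 9 at an adjusted p of 0.05, against 0.087% of all genes. The median log2 fold change of HFD over chow was -0.43 for the 9, beside 0.0022 over all genes. At an unadjusted p under 0.05, 5 of 9 were lower and none higher, against 6.15% of all genes in either direction. DESeq2 called 2 (Marco and Scarb1) of the 8 receptors to which it gave an adjusted p, beside 69 genes in the whole series. The limma-voom fit called 0 receptors. Marco, Msr1, Scarb1 and Stab1 lay below chow without overlap, 4 of 9, against 6.35% of all genes. Marco stood at 5.82 ± 3.34 CPM in HFD 0 h and 16.6 ± 2.86 CPM in chow 0 h (SD, n = 3 each), a log2 difference of -1.36 ± 0.27 (edgeR adjusted p = 0.0733, DESeq2 adjusted p = 0.000494). Scarb1 averaged 80.2 ± 10.7 CPM in HFD 0 h and 121 ± 4.21 CPM in chow 0 h, a log2 difference of -0.58 ± 0.15 (edgeR adjusted p = 0.273, DESeq2 adjusted p = 0.0390). Without the shallow HFD 0 h replicate 3, edgeR again called 0 of 9, with Marco at -1.18 (adjusted p = 0.114) and Scarb1 at -0.54 (adjusted p = 0.444). Marco passed without HFD 0 h replicate 2, at -1.84 (edgeR adjusted p = 0.0107), and with no filter, at -1.37 (adjusted p = 0.0118).

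Apart from Cd163, whose few counts leave a wide interval, the other receptors at 0 h had smaller estimated diet differences than Marco and Scarb1. Stab1 averaged 125 ± 14.5 CPM in HFD 0 h and 183 ± 29.2 CPM in chow 0 h, a log2 difference of -0.55 ± 0.16, and Msr1 162 ± 25.5 and 219 ± 13.4 CPM, a difference of -0.43 ± 0.14 (edgeR adjusted p = 0.406 and 0.510). Axl lay between 76.3 and 110 CPM in HFD 0 h and between 108 and 141 CPM in chow 0 h, at -0.40 ± 0.17 with overlapping libraries (edgeR adjusted p = 0.750). Mertk was the one abundant receptor with a higher mean in HFD by more than its error, 179 ± 18.3 CPM against 135 ± 25.7 CPM in chow, at 0.42 ± 0.21 (edgeR adjusted p = 0.826), and its libraries overlapped. For Mrc1 and Cd5l the folds of HFD over chow were 0.960 (95% interval 0.746 to 1.23) and 1.11 (0.719 to 1.71), and for Cd163, at a few counts per library, 0.465 (0.186 to 1.16).

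At 24 h of LPS, edgeR again called 0 of 9 between the diets, against 0.00791% of all genes. DESeq2 called 1 (Mrc1) of the 8 receptors to which it gave an adjusted p, beside 41 genes in the whole series. The limma-voom fit called 0 receptors. At an unadjusted p under 0.05 in edgeR the count was 3 of 9, against 7.86% of all genes. The same 3 were the ones whose libraries did not overlap, which held for 12.3% of all genes. Mrc1 was higher in HFD 24 h, at 71.3 ± 15.6 CPM against 39.6 ± 8.89 CPM in chow 24 h, a log2 difference of 0.85 ± 0.19 (edgeR adjusted p = 0.202, DESeq2 adjusted p = 0.0111). Stab1 was lower, at 78.8 ± 13.4 CPM in HFD 24 h and 114 ± 17.1 CPM in chow 24 h, at -0.54 ± 0.16 (edgeR adjusted p = 0.443). Marco was lower too, at 30.6 ± 5.87 CPM in HFD 24 h and 46.3 ± 2.97 CPM in chow 24 h, at -0.60 ± 0.22 (edgeR adjusted p = 0.530).

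Levels of the remaining receptors overlapped between the diets at 24 h. The folds of HFD over chow were 0.940 for Msr1 (95% interval 0.778 to 1.14), 0.928 for Scarb1 (0.757 to 1.14), 1.02 for Axl (0.819 to 1.28), 1.12 for Mertk (0.844 to 1.48) and 0.971 for Cd5l (0.626 to 1.51). Cd163 had a fold of 0.951, with an interval of 0.424 to 2.14. Stab1 and Marco thus had lower means in HFD at both times, at -0.54 and -0.60 at 24 h beside -0.55 and -1.36 at 0 h. Only HFD 24 h holds libraries with and without the lane tag, and with the tag as a covariate Mrc1 was at 0.997 ± 0.26, Stab1 at -0.28 ± 0.21 and Marco at -0.33 ± 0.31 (edgeR adjusted p = 0.695, 0.999 and 0.999).

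**Figure D4:**
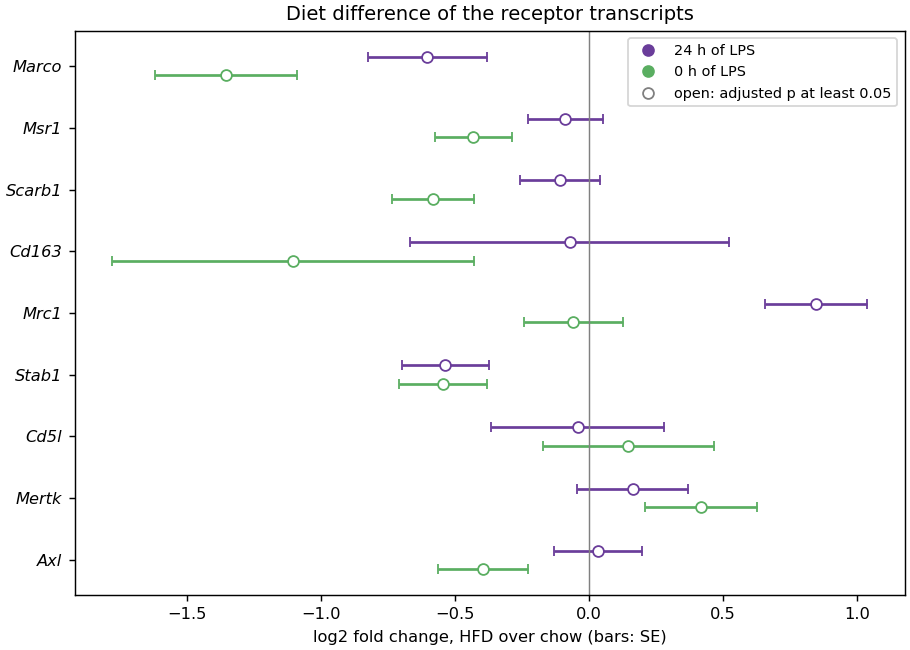
The log2 fold change of each receptor transcript, HFD over chow (horizontal axis), at 24 h (purple, upper point) and 0 h (green, lower point) of LPS, with its SE as bars. All symbols are open, as no edgeR adjusted p was under 0.05, and Marco at 0 h (-1.36) and Mrc1 at 24 h (0.85) lie farthest from 0 among the receptors above the detection limit.

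The genes with the pattern most like each receptor over the 12 libraries were found by the root mean square difference of log2 CPM, each gene centred on its own mean, among genes with at least 10 CPM on average. Msr1 was followed most closely, by Inpp5b, an inositol polyphosphate phosphatase, at 0.103, and 1700071M16Rik at 0.116. Marco was nearest to the interferon-induced Ifi27l2a (0.256) and the metallothionein Mt2 (0.359). Ifi27l2a averaged 153 CPM in HFD 24 h, 23.3 CPM in HFD 0 h, 232 CPM in chow 24 h and 83.0 CPM in chow 0 h, the same order of groups as Marco. Axl was nearest to Spred1 (0.177), an inhibitor of Ras signalling, and Uhrf1bp1 (0.182).

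Among the receptors that fell, Mrc1 was nearest to Gask1b (0.242) and to Hpgds (0.280), the haematopoietic prostaglandin D synthase. Cd5l was nearest to Fcgrt (0.256), part of the neonatal Fc receptor, and to transferrin, Trf (0.266). The myelin protein gene Pmp22 (0.209) was among the nearest to Stab1, and Scarb1 was nearest to Acly (0.150), which makes acetyl-CoA for lipid synthesis, and Trp53inp2 (0.153). Mertk was nearest to Igbp1 (0.157) and Zfp706 (0.168). Cd163, with few counts, had no close neighbour, the nearest being Cysltr1 (0.470) and Cxcl13 (0.487), and each of these distances describes these libraries only.

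Related genes were read from 7 lists, whose 86 tested genes include 43 that passed with LPS in HFD (50% against 24.6% of all genes) and 48 in chow (55.8% against 26.6%) by edgeR. Of 11 other scavenger receptors, 3 rose and 4 fell in each diet (63.6% in all), with a median log2 fold change of -0.64 in HFD and -0.19 in chow. Cxcl16, a transmembrane chemokine that also takes up oxidised lipoprotein, rose by 2.54 ± 0.12 in HFD and 2.34 ± 0.12 in chow (log2 fold change ± SE, as for all genes of the lists). Scarf1 rose by 2.37 ± 0.17 and 2.16 ± 0.16 and Olr1, the lectin-like receptor LOX-1, by 3.22 ± 0.43 and 2.56 ± 0.40. Cd36, the class B receptor for fatty acids and oxidised lipoprotein, fell, at -1.03 ± 0.15 in HFD and -1.11 ± 0.15 in chow. Lrp1, also a haem scavenger receptor through haemopexin, fell too, at -1.23 ± 0.20 in HFD and -0.94 ± 0.20 in chow.

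Of 16 other apoptotic cell receptors and bridging molecules, 3 rose and 8 fell in HFD, and 3 rose and 10 fell in chow (68.8% and 81.2% in all), with medians of -0.71 and -0.94. Thrombospondin 1, Thbs1, a bridge between apoptotic cells and integrins, rose by 2.17 ± 0.20 in HFD and 2.58 ± 0.20 in chow, and Cd300lf, a phosphatidylserine receptor, by 1.26 ± 0.14 and 1.82 ± 0.14. Itgb3, the integrin chain that binds such bridges, fell, at -2.29 ± 0.19 and -2.35 ± 0.20, as did Trem2, a lipid-sensing receptor, at -1.54 ± 0.15 and -1.45 ± 0.15. Most of the 19 genes of the engulfment machinery did not pass. Among them 2 rose and 3 fell in HFD, and 3 rose and 4 fell in chow (26.3% and 36.8% in all, the first near the 24.6% of all genes), with the cholesterol exporter Abca1 at 0.85 ± 0.16 and 0.92 ± 0.16 and Elmo1, a partner of the exchange factor Dock1, at -0.94 ± 0.14 and -0.76 ± 0.14.

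Brakes on uptake and genes of receptor shedding, 8 in all, had 2 up and 2 down in HFD and 3 up and 2 down in chow (50% and 62.5%). The "do not eat me" ligand Cd47 rose by 1.01 ± 0.16 in HFD and 0.78 ± 0.16 in chow, while its receptor Sirpa fell, at -0.53 ± 0.12 and -0.69 ± 0.12. Rhbdf2, which carries the sheddase ADAM17 to the cell surface, rose by 1.21 ± 0.14 and 1.31 ± 0.14, and Adam10 fell, at -0.64 ± 0.12 and -0.62 ± 0.12. Of 15 transcription factors linked to these receptors, 1 rose and 5 fell in each diet (40%). Pparg, a lipid-sensing nuclear receptor, fell, at -2.05 ± 0.17 in HFD and -2.22 ± 0.17 in chow.

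Of 9 genes of haem and haemoglobin handling, 3 rose and 4 fell in each diet (77.8%). Haem oxygenase Hmox1 rose by 1.25 ± 0.15 in HFD and 1.78 ± 0.15 in chow, the ferritin heavy chain Fth1 by 1.08 ± 0.19 and 1.39 ± 0.19, and the haem transporter Slc48a1 by 0.82 ± 0.14 and 0.73 ± 0.14. Of 9 genes of alternative activation, which interleukin-4 induces, 3 rose and 1 fell in each diet (44.4%). Arg1 rose by 2.48 ± 0.49 in HFD and 2.95 ± 0.49 in chow, Tgm2 by 1.72 ± 0.15 and 1.85 ± 0.15 and the receptor chain Il4ra by 1.06 ± 0.19 and 1.05 ± 0.18, whereas Clec10a, at under 3 CPM in every group, fell, at -2.01 ± 0.52 and -2.44 ± 0.52. Medians of the last 5 lists in HFD were -0.034 (engulfment), 0.23 (brakes and shedding), -0.11 (transcription factors), -0.26 (haem) and -0.26 (alternative activation). In chow they were -0.015, -0.039, -0.16, 0.023 and 0.90 in the same order. The last of these is the value of Ccl24 (0.90 ± 0.58, edgeR adjusted p = 0.294), which averaged at most 1.66 CPM in any group. In HFD Ccl24 was at 1.93 ± 0.76 (edgeR adjusted p = 0.0746). Mgl2, at 1.08 CPM or less on average, was at -0.84 ± 0.88 in HFD and 1.18 ± 0.98 in chow. The 2 medians of alternative activation thus rest on genes of few counts and show no diet difference. The transcription factor count rested on single libraries, as 2 in place of 6 passed in HFD without HFD 24 h replicate 3, and 3 in place of 6 in chow without chow 0 h replicate 2, chow 0 h replicate 3 or chow 24 h replicate 1. When the lane tag entered the fit, edgeR called 1509 of 12641 genes with LPS in chow. The chow calls were then 5 of 11 other scavenger receptors, 9 of 16 other apoptotic cell receptors and bridging molecules and 5 of 19 engulfment genes. They were 3 of 8 for brakes and shedding, 3 of 15 for transcription factors, 2 of 9 for haem handling and 2 of 9 for alternative activation. Between the diets edgeR called 0 of the 86 at either time. At 24 h 12 had an unadjusted p under 0.05 (14% against 7.86% of all genes), DESeq2 called 2 (Hmox1 and Maf) of 76 with an adjusted p and limma-voom 1 (Maf). At 0 h 9 had an unadjusted p under 0.05 (10.5% against 6.15%), DESeq2 called 2 (Abca1 and Cxcl16) of 77 with an adjusted p and limma-voom 0. The interaction was called for 0 of the 86 by edgeR and limma-voom and 0 of the 38 that had an adjusted p in DESeq2, with 3 at an unadjusted p under 0.05 in edgeR (3.49% against 2.35%).

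**Figure D5:**
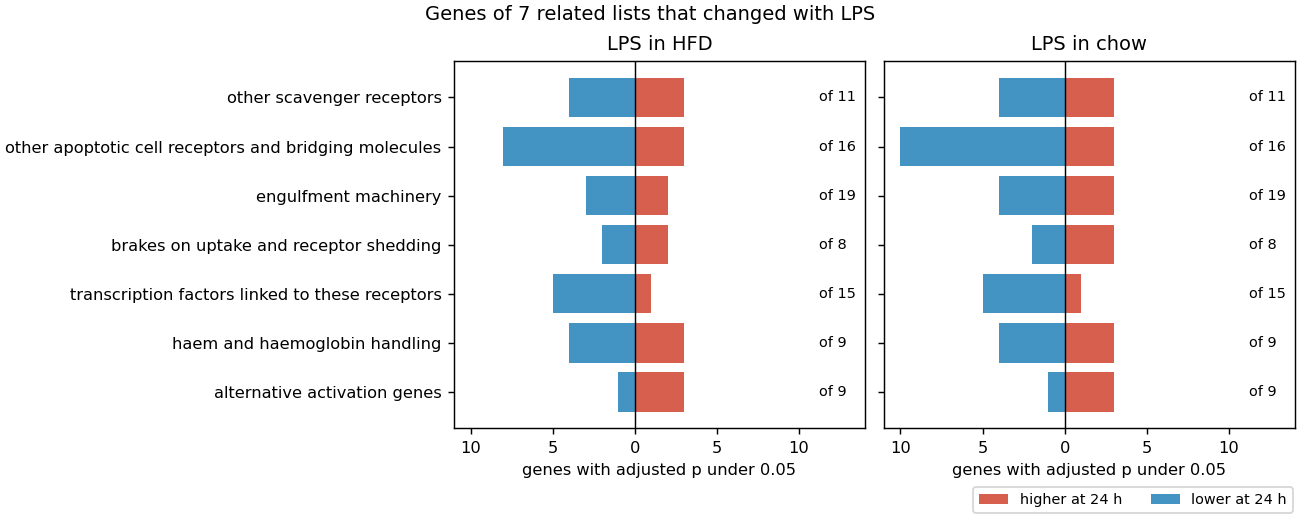
Number of genes of 7 related lists (rows) that were higher (red, to the right) or lower (blue, to the left) at 24 h than at 0 h of LPS with an edgeR adjusted p under 0.05, in HFD (left panel) and chow (right panel), with the number tested at the right. Other apoptotic cell receptors and bridging molecules had 8 of 16 lower in HFD and 10 of 16 lower in chow.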

How the data were processed

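Per the labels' protocols, the Qiagen RNeasy mini kit gave the RNA and NuGen Ovation Universal the libraries. The authors used CASAVA 1.8.2 and STAR 2.5.2b with mm10, per the submitters' processing notes. For the counter and any use of strand, the sources used here give nothing. Reads of overlapping genes may thus be shared between strands. The deposited values are raw counts for 35745 RefSeq transcripts, of which 35440 took a symbol from a RefSeq table of GRCm38.p6 and 188 from GENCODE, while 117 kept their identifiers. Reads shared by isoforms stand in each isoform's count, so 1 transcript per gene was used, the one with the highest mean.

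CPM used library totals scaled by TMM. After filterByExpr, genes were tested in R 4.3.3 by edgeR 4.0.16 (robust glmQLFit and glmQLFTest) in 1 model of 4 group means, with Benjamini-Hochberg adjustment over all 12641 genes at 0.05. The SE is the log2 fold change over the square root of F, so it is not independent of p. The common biological coefficient of variation was 18.0%. Between 0.139 CPM in the deepest library and 1.35 CPM in the shallowest equal 3 counts. No label says that replicates are separate animals, so the p-values reflect spread between libraries that may be technical. All pairs of replicates differed by more than sampling noise.

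The members, the lists and the rule for named genes (all members, up to 4 genes with the smallest p per list and comparison, 2 genes of nearest pattern per member) were chosen with earlier results of these data known. Alternatives were other scaling factors, no filter, DESeq2 1.42.0, limma-voom 3.58.1, only the groups compared, summed transcripts, the lane tag, a replicate block and each library left out. The fits were tested on simulated data. Some genes that the naming rule selects are not reported here.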

Additional observations from a re-analysis of the deposited data

How the results depend on the processing

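All 6 receptor calls with LPS in HFD were kept under each alternative. Over 928 recomputed receptor values, 889 kept direction and side of the threshold, 3 lost it, 8 gained it and 28 changed sign, each of the last with a main value of at most 0.25 on the log2 scale and no call. In chow the lane tag left 4 of 9 receptors and 1509 genes, against 3357 without it. Between diets at 24 h DESeq2 called 1 receptor, and genes called were 1 in the main test, 10 with no filter, 41 by DESeq2, 11 by limma-voom and 0 with only the groups compared or with the lane tag. At 0 h no filter gave 1 receptor, DESeq2 2 and the replicate block 1 (Marco in each), and genes called were 11 in the main test, 23 with no filter, 69 by DESeq2 and 18 with the block. Genes called for the interaction were 0 in the main test, 3 with no filter, 10 by DESeq2 and 4 with the block. The cause of these differences was not tested.

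Leaving out 1 library at a time gave 6 receptors throughout for LPS in HFD, 7 to 8 for LPS in chow, 0 to 1 for diet at 0 h (Marco at -1.84 without HFD 0 h replicate 2, edgeR adjusted p = 0.0107) and 0 for diet at 24 h and the interaction. Genes called ran over 2520 to 3373 for LPS in HFD, 2535 to 3818 for LPS in chow, 0 to 4 for diet at 24 h, 7 to 25 for diet at 0 h and 0 to 3 for the interaction. Libraries of the same number in the labels had correlations of deviations of 0.029 to 0.346, not all over 0.1. Those of different numbers ran from -0.307 to 0.109, and 9 of 12 libraries correlated best with their own number. The labels do not say what the numbers mark, and the main test did not take them as pairs. With the replicate block, Mertk passed with LPS in HFD at -0.41 (edgeR adjusted p = 0.0269) and Marco with diet at 0 h at -1.41 (adjusted p = 0.0456). The block changed no other receptor call.

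Sign changes were all among uncalled values. With the lane tag, diet at 24 h was 0.034 for Scarb1, 0.0068 for Cd163, -0.29 for Axl and -0.12 for Cd47, and the interaction was -0.14 for Cd47 and 0.035 for Nr1h2. The Stab1 interaction was -0.015 by limma-voom and -0.00080 under upper-quartile scaling, and Mgl2, with few counts, was at -0.098 for diet at 0 h with limma-voom. With 1 library left out, diet at 24 h ran from -0.16 to 0.038 for Msr1, -0.33 to 0.15 for Cd163, -0.41 to 0.22 for Cd5l, -0.020 to 0.53 for Mertk and -0.066 to 0.18 for Axl. Diet at 0 h ran from -0.17 to 0.061 for Mrc1, -0.29 to 0.41 for Cd5l, -0.0046 to 0.50 for Lrp1 and -5.10 to 2.64 for Mgl2. LPS in chow ran from -0.49 to 0.051 for Mertk. The interaction ran from -0.12 to 0.14 for Stab1, -0.56 to 0.25 for Cd5l, -0.44 to 0.11 for Mertk, -0.49 to 0.014 for Lrp1, -0.49 to 0.034 for Fth1, -2.69 to 5.04 for Mgl2 and -0.89 to 0.49 for Arg1. Depth limits Cd163, and Marco in HFD 0 h replicate 3, where it rests on 6 counts.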
